A study of Mus musculus with 3 samples.

Results

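The genes described are 33 genes of sterol and fatty acid synthesis, taken by gene symbol from a list, out of 55418 annotated symbols quantified. They were 7 genes of the mevalonate branch, 11 of the steps from squalene to cholesterol, 6 of sterol sensing and transport, and 9 of fatty acid synthesis and desaturation. The RNA came from the cytosolic fraction, called cytoplasmic in the sample descriptions, of macrophages grown from the bone marrow of C57BL/6J mice. The macrophages had been stimulated with lipid A, the lipid anchor of bacterial lipopolysaccharide, at 100 ng/ml for 90 min. All 3 libraries were total RNA depleted of ribosomal RNA, made from 1 µg each, and formed 1 group with no unstimulated cells and no other fraction. No effect of lipid A or of the fractionation can therefore be read from them, and every comparison is between genes within a library, between libraries, or between quantifications. The labels give the libraries as biological replicates from separate biosamples under a shared donor entry and do not say whether separate mice were used. Sex and age were not collected.

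Cholesterol is built from acetyl-CoA through mevalonate and isoprenoid diphosphates, which are joined to squalene and then closed and trimmed into the sterol. The transcription factors SREBP-1 and SREBP-2, encoded by Srebf1 and Srebf2, are held in the endoplasmic reticulum by SCAP and INSIG proteins when sterols are plentiful, and otherwise travel to the Golgi, are cleaved and switch on most of these genes. In macrophages the same pathway feeds membrane growth, isoprenoid anchors for small GTPases and the sterol intermediates that act on LXR receptors.

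Promoter sequences from RefSeq (GRCm38.p6, 250 bases before to 50 bases after each annotated start) were matched by symbol for 26 of the 33 genes, as 34 windows. They are shown for 3 genes: Hmgcs1 and Insig1, the pair with the highest levels, and Srebf1. For Srebf1 the starts of 2 coding transcripts are shown, and Srebf1-201 (upstream start) exceeded Srebf1-207 (downstream start) in every library. Capitals mark the sterol regulatory element TCACNCCAC, the CCAAT box (ATTGG where it lies on the other strand) and the E-box CACGTG, each searched on both strands, and each sequence reads 5′ to 3′ along the gene's strand. The Hmgcs1 window is chr13:119690101-119690400 (+), the Insig1 window chr5:28071162-28071461 (+), the window at the upstream Srebf1 start chr11:60220578-60220877 (-) and that at the downstream start chr11:60210422-60210721 (-).
Hmgcs1: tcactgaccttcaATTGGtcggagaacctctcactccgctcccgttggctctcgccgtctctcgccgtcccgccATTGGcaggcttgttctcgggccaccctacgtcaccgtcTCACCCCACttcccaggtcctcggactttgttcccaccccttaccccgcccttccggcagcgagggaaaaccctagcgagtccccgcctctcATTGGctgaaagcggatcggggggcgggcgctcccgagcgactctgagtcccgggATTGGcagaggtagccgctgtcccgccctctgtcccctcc
Insig1: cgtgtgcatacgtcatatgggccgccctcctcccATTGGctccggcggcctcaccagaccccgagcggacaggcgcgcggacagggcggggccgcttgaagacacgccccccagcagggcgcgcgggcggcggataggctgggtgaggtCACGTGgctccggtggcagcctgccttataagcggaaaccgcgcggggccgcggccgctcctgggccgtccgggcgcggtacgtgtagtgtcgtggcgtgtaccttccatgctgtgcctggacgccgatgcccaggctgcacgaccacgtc
Srebf1 upstream: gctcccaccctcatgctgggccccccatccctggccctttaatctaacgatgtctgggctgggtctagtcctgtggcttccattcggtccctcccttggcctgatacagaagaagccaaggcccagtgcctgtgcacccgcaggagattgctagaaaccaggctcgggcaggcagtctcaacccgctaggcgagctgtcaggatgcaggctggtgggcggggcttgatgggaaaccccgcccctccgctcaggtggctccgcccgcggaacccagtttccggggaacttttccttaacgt
Srebf1 downstream: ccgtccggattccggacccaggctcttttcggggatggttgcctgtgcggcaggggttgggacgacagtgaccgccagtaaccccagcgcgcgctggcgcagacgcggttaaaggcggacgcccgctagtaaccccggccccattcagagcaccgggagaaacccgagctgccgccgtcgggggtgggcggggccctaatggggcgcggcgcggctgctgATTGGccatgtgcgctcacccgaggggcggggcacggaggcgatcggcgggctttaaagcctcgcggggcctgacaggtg

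Hmgcs1 held 1 match to the sterol regulatory element and 4 CCAAT boxes, and Insig1 held 1 CCAAT box and 1 E-box. The upstream Srebf1 window held none of these letters, and the downstream window held 1 CCAAT box. A CCAAT box, the site of NF-Y, stood in 21 of the 26 matched genes (80.8%), against 2970 of 6993 expressed coding genes that have a window (42.5%; expressed means averaging 1 TPM or more). The E-box was found in 6 of the 26 genes (23.1%), against 12.9% of those expressed genes. The sterol regulatory element as spelled here was found in Hmgcs1 alone among the 26 (3.85%), against 1.37%, and the GC box GGGCGG in 21 genes (80.8%), against 71.2%. These are counts of letters in 1 fixed window and no test was made of them. Over all 32851 windows the shares were 37.4% for the CCAAT box, 7.15% for the E-box, 1.24% for the sterol regulatory element and 35.7% for the GC box, and among the 34 windows of the 26 genes 64.7%, 20.6%, 2.94% and 73.5%.

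Expected counts summed to 33821479, 47843161 and 59390843 in replicates 1, 2 and 3, so replicate 3 was the deepest. The members had between 139 and 14908 counts in a library, so none was near the limit of detection. All 8 macrophage markers, among them Lyz2 and Csf1r, lay above the reference defined next, with summed levels of 7215, 5520 and 5179 TPM in replicates 1, 2 and 3. The 6 neutrophil markers summed to 2.85, 3.10 and 5.0 TPM. Most of that sum was Ngp, with 2.40, 2.54 and 4.14 TPM, while Mpo had 0.13, 0.18 and 0.27 TPM and Ly6g was at 0 in every library. The 6 B and T cell markers summed to 0.02, 0.01 and 0.16 TPM, with Cd3g at 0, and the 6 fibroblast and adipocyte markers to 0.10, 0.07 and 0.15 TPM, with Plin1 at 0. The nuclear RNA Malat1 had 128, 335 and 913 TPM in replicates 1, 2 and 3.

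Levels were compared per length, as TPM, transcripts scaled to a fixed total per library. The reference of a library was the median TPM over the 8747 protein-coding genes averaging 1 TPM or more, which came to 7.38, 6.08 and 6.21 TPM in replicates 1, 2 and 3. A level is log2(TPM + 0.1) minus the reference on the same scale, and a gene was called above or below when its adjusted p (limma one-sample moderated test, Benjamini-Hochberg over 13327 genes) was under 0.05 and the difference was at least 1 log2 unit. By this rule 8 of the 33 genes were above the reference and 11 below, while 14 were neither. Among all genes tested 20.5% were above and 50.7% below, and among protein-coding genes 23.4% and 43.7%. The share of members above, 8 of 33, was thus near the background. The median level of the members was -0.16 ± 0.11 log2 units (SD, n = 3), against -0.62 for all protein-coding genes tested. That median depends on the scale, and was 0.06 on FPKM values and -0.54 in the second quantification. With a reference drawn from genes of at least 5 TPM, 3 members (Insig1, Hmgcs1 and Msmo1) were called above and 18 below. These are bulk samples, in which fewer cells of a type and less RNA per cell cannot be told apart.

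**Figure D1:**
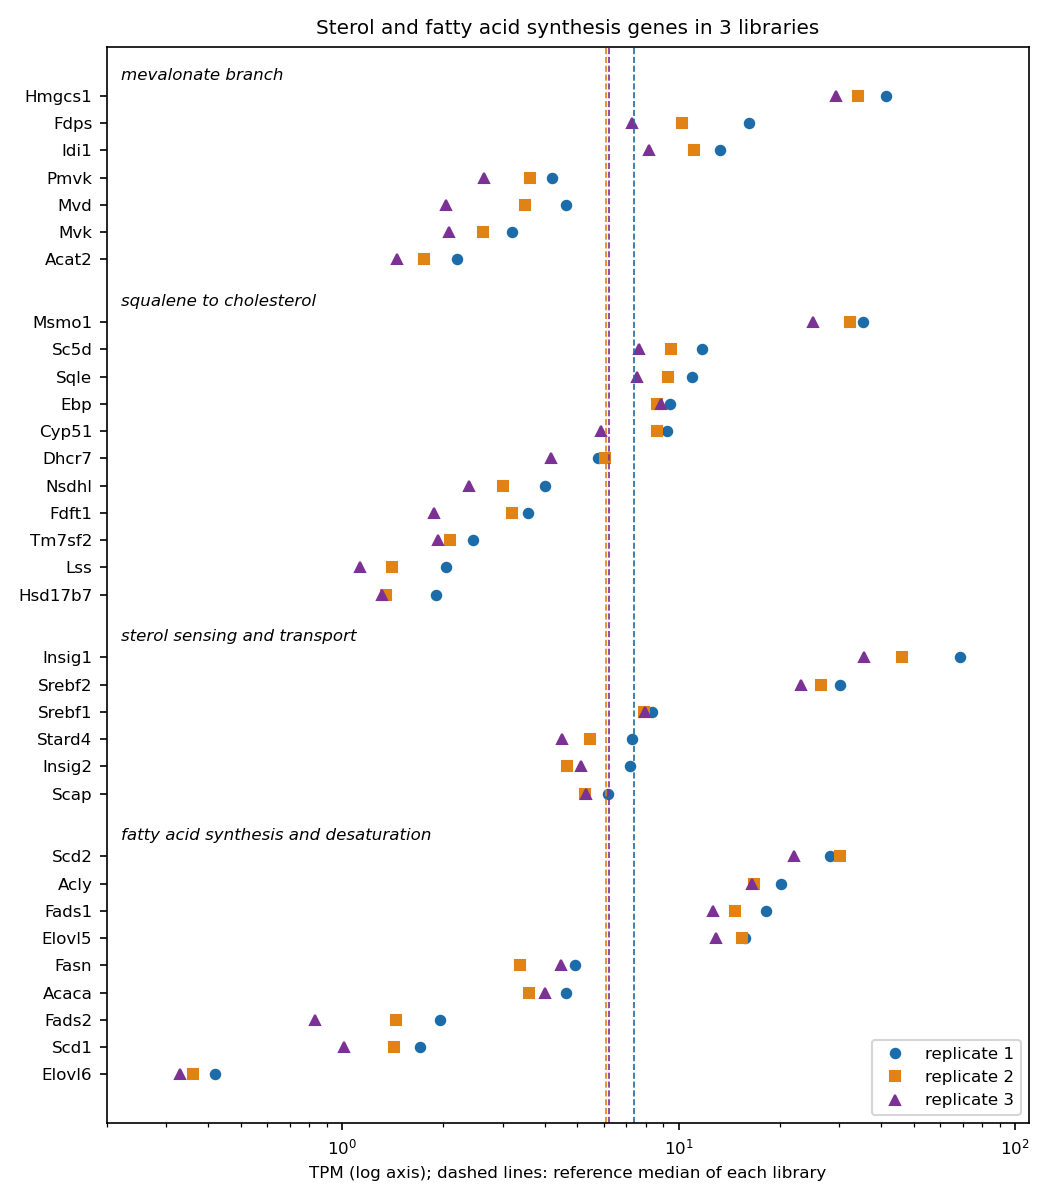
Level of each of the 33 genes in TPM on a log axis, by group of the pathway, with 1 point per library and a dashed line at each library's reference median. Insig1, Hmgcs1, Msmo1, Scd2 and Srebf2 lie furthest to the right in all 3 libraries, and Elovl6 lies below 1 TPM in all 3.

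In the mevalonate branch 1 of 7 genes was above the reference and 3 were below, with a median level of -0.87 ± 0.29 log2 units (SD, n = 3). Hmgcs1, which makes HMG-CoA from acetyl-CoA and acetoacetyl-CoA, stood apart from the rest with 41.5, 34.1 and 29.4 TPM in replicates 1, 2 and 3. Its level was 2.39 ± 0.14 log2 units above the reference (adjusted p = 1.27e-05), and 88% of the reference genes had a lower mean. Hmgcs1 lies at chr13:119690379-119708260 (mm10, + strand), and its antisense neighbour Gm48342 averaged 0.143 TPM. Idi1, which interconverts the isoprenoid diphosphates, had 13.3, 11.1 and 8.15 TPM, and shares 684 bases with the copy Gm13502 (0.593 TPM). Fdps, which joins them to farnesyl diphosphate, had 16.2, 10.2 and 7.28 TPM. Both were above the reference median in every library by less than 1 log2 unit on average, 0.70 ± 0.27 for Idi1 and 0.70 ± 0.45 for Fdps (adjusted p = 0.00273 and 0.0157).

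The kinases and the decarboxylase between these steps were lower. Mvd, which decarboxylates mevalonate diphosphate, had 4.63, 3.49 and 2.04 TPM in replicates 1, 2 and 3, a level of -1.0 ± 0.49 (adjusted p = 0.00584). This call sat at the edge of the rule, and Mvd was no longer called without replicate 3 (-0.71), with a pseudocount of 1 (-0.83) or on FPKM (-0.79). The whole span of Mvd, 9822 bases, lies opposite Gm20388, which averaged 7.42 TPM, and the use of strand in counting is not stated in what was available. Mevalonate kinase, Mvk, had 3.19, 2.63 and 2.08 TPM and lay at -1.30 ± 0.20 (adjusted p = 0.00013). Pmvk, the next kinase, had 4.21, 3.62 and 2.64 TPM and was not called at -0.91 ± 0.26. With the reference drawn from genes of at least 5 TPM it was called below (-1.94), and the branch had 1 gene above and 4 below. Acat2, the cytosolic thiolase that makes acetoacetyl-CoA, was the lowest of the branch, with 2.19, 1.75 and 1.46 TPM and a level of -1.82 ± 0.17 (adjusted p = 3.18e-05). Its transcript shares 435 bases at 99.1% identity with a transcript of Tcp1, which averaged 26.9 TPM, and 1441 bases at 98.3% with Acat3, so the count of Acat2 is uncertain. In every library Hmgcs1 was the highest of the 7 and Acat2 the lowest.

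Of the 11 genes from squalene to cholesterol 1 was above the reference and 5 were below, with a median level of -0.31 ± 0.28 log2 units (SD, n = 3). Msmo1, the oxidase that acts on the methyl groups at carbon 4 of the sterol, had 35.4, 32.4 and 25.2 TPM in replicates 1, 2 and 3. It lay 2.21 ± 0.20 log2 units above the reference (adjusted p = 1.82e-05). Its partner in the same demethylation, the dehydrogenase Nsdhl, had 4.02, 3.01 and 2.38 TPM, and the ketoreductase Hsd17b7 had 1.90, 1.35 and 1.31 TPM. The lowest Msmo1 value was thus above the highest value of either partner. Nsdhl lay at -1.07 ± 0.25 (adjusted p = 0.00049) and was not called without replicate 3 (-0.92), with a pseudocount of 1 (-0.88) or on FPKM (-0.86). Hsd17b7 lay at -2.05 ± 0.13 (adjusted p = 1.92e-05).

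Sqle, the squalene epoxidase, had 10.9, 9.31 and 7.52 TPM in replicates 1, 2 and 3. Lss, which closes the epoxide into lanosterol, had 2.04, 1.41 and 1.13 TPM. The enzymes on either side of this ring closure were higher than Lss in every library, since Cyp51, the demethylase that acts on lanosterol, had 9.23, 8.65 and 5.88 TPM. Lss lay at -2.07 ± 0.28 (adjusted p = 6.56e-05), while Sqle at 0.48 ± 0.18 and Cyp51 at 0.25 ± 0.30 were not called. Fdft1, squalene synthase, had 3.56, 3.19 and 1.87 TPM and lay at -1.21 ± 0.41 (adjusted p = 0.00161). Without replicate 3 (-0.96) and with a pseudocount of 1 (-0.99) it was not called, nor on FPKM. Its 3′ end overlaps that of Ctsb, a lysosomal protease at 2131 TPM, by 774 bases on the opposite strand, so the value of Fdft1 is uncertain.

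The last steps lay near the reference. Sc5d, the lathosterol desaturase, had 11.8, 9.51 and 7.63 TPM, the isomerase Ebp had 9.44, 8.65 and 8.85 TPM, and the reductase Dhcr7 had 5.77, 6.04 and 4.18 TPM. None of these was called, with levels of 0.53 ± 0.21, 0.45 ± 0.09 and -0.31 ± 0.28 log2 units. With the reference drawn from genes of at least 5 TPM, Dhcr7 was called below (-1.33), while Sc5d (-0.50) and Ebp (-0.58) were not. The squalene group then had 1 gene above and 6 below. Tm7sf2, a sterol C14 reductase, was lower at 2.45, 2.09 and 1.93 TPM (-1.56 ± 0.07, adjusted p = 1.92e-05). It overlaps Vps51 on the same strand by 532 bases, and Vps51 averaged 7.15 TPM.

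Of the 6 genes of sterol sensing and transport 2 were above the reference and 0 below. This depends on the reference: with one drawn from genes of at least 5 TPM, Scap (-1.26), Insig2 (-1.26) and Stard4 (-1.24) were called below and Srebf2 (0.97) was no longer called above, which left 1 above and 3 below. Insig1, which retains SCAP in the endoplasmic reticulum and is itself an SREBP target, was the highest of all 33 genes, with 68.5, 46.1 and 35.5 TPM in replicates 1, 2 and 3. It lay at 2.87 ± 0.35 log2 units (adjusted p = 3.29e-05), above 91.5% of the reference genes, and maps to chr5:28071363-28078662 (mm10, + strand). Its paralogue Insig2 had 7.15, 4.66 and 5.12 TPM. Within a library Insig1 exceeded Insig2 by 3.10 ± 0.28 log2 units, or 8.56-fold, in 3 of 3 libraries. The exact sign-flip test gave p = 0.25 (two-sided; 0.25 adjusted over the 6 pairs of members compared), which is the smallest value that 3 libraries allow and was the result for all 6 pairs.

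Srebf1, which encodes the forms of SREBP-1, had 8.36, 7.87 and 7.96 TPM in replicates 1, 2 and 3. Srebf2, which favours sterol genes as SREBP-2, had 30.1, 26.5 and 23.2 TPM. Srebf1 was below Srebf2 in 3 of 3 libraries, by -1.70 ± 0.16 log2 units, a 3.25-fold gap (exact p = 0.25). Srebf2 lay above the reference at 2.00 ± 0.11 (adjusted p = 1.37e-05), and Srebf1 was not called at 0.30 ± 0.11. Scap, the escort of both proteins, had 6.15, 5.27 and 5.31 TPM, and Stard4, a carrier of cholesterol between membranes, had 7.28, 5.46 and 4.51 TPM. Neither was called, at -0.23 ± 0.03 and -0.21 ± 0.22 log2 units, and neither was Insig2 at -0.23 ± 0.17.

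Fatty acid synthesis and desaturation split into 4 genes above the reference, 3 below and 2 that were neither, with a median of -0.59 ± 0.14 log2 units (SD, n = 3). Acly, which makes cytosolic acetyl-CoA from citrate, had 20.1, 16.7 and 16.6 TPM in replicates 1, 2 and 3 and lay at 1.43 ± 0.02 (adjusted p = 1.26e-05). Acaca, which carboxylates acetyl-CoA to malonyl-CoA, had 4.63, 3.60 and 4.02 TPM, and the synthase Fasn had 4.94, 3.37 and 4.46 TPM. Acaca and Fasn were not called, at -0.67 ± 0.06 and -0.62 ± 0.19. Acly exceeded Acaca by 2.10 ± 0.08 log2 units, or 4.28-fold, in 3 of 3 libraries (exact p = 0.25).

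The desaturases and elongases each had 1 high and 1 low member. Scd1 had 1.70, 1.43 and 1.01 TPM in replicates 1, 2 and 3, and Scd2, the other stearoyl-CoA desaturase, had 28.2, 30.1 and 22.0 TPM. Scd1 was below Scd2 by -4.20 ± 0.19 log2 units, or 18.4-fold (exact p = 0.25). Their transcripts share 897 bases at 93.6% identity, so reads could be divided wrongly between them and the low value of Scd1 is uncertain. Fads1, which inserts the double bond at carbon 5 of polyunsaturated fatty acids, had 18.2, 14.7 and 12.7 TPM, and Fads2, which inserts the one at carbon 6, had 1.95, 1.45 and 0.83 TPM. Fads1 exceeded Fads2 by 3.40 ± 0.34 log2 units, or 10.5-fold (exact p = 0.25). Elovl6, which elongates saturated and monounsaturated chains, had 0.42, 0.36 and 0.33 TPM, the lowest of the 33 genes, while Elovl5, which elongates polyunsaturated chains, had 15.8, 15.4 and 12.9 TPM. That gap was -4.98 ± 0.09 log2 units, or 31.5-fold (exact p = 0.25), and each of these pairs kept its direction in 3 of 3 libraries with no overlap of values.

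Scd2 (2.01 ± 0.25), Fads1 (1.19 ± 0.15) and Elovl5 (1.15 ± 0.15) were called above the reference, with adjusted p of 4.02e-05, 5.79e-05 and 7.16e-05. Fads2 (-2.21 ± 0.48), Scd1 (-2.19 ± 0.27) and Elovl6 (-3.82 ± 0.07) were called below, with adjusted p of 0.000288, 5.29e-05 and 1.44e-05. With the reference of at least 5 TPM the group had 0 above and 5 below, as Acly (0.40), Scd2 (0.98), Elovl5 (0.13) and Fads1 (0.16) lost their calls and Acaca (-1.70) and Fasn (-1.65) were called below. In the second quantification Acly (0.96), Elovl5 (0.62) and Fads1 (0.61) lost their calls, while Fasn (-1.35) and, in the mevalonate branch, Pmvk (-1.44) were called below, so that 5 of the 33 members lay above and 13 below. The pairs kept their direction there.

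Between libraries, abundance was compared as counts scaled by TMM to a common library size (CPM), since the summed TPM of protein-coding genes was highest in replicate 1. None of the 33 genes varied beyond the trend of genes of its level (edgeR goodness-of-fit test, Benjamini-Hochberg over 12330 genes), where 281 genes (2.28%) were called. At an unadjusted p under 0.05 there were 9 members (Mvd, Idi1, Fdps, Fdft1, Lss, Cyp51, Insig1, Scd1 and Fads2), against 723 of all genes (5.86%). The lowest adjusted p was that of Fdps, 0.0722, which had 15.1 CPM in replicate 3 and 27.6 and 21.7 CPM in replicates 1 and 2. Fdps was called in the estimated counts of the second quantification (adjusted p = 0.0414). Without replicate 1, Fdft1 (adjusted p = 0.0377) and Cyp51 (adjusted p = 0.047) were called.

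The lowest value of most members stood in the same library. Of the 33 genes 28 were lowest in replicate 3, a position that 36.4% of all genes took. They were 17 of the 18 enzymes of sterol synthesis, 8 of the 9 genes of fatty acid synthesis and desaturation, and 3 of the 6 genes of sensing and transport. Replicate 3 was singled out after its values were seen, and many of the members are known to be regulated together, so the counts are a description and no test of them was made. The median member was lower in replicate 3 than in the mean of replicates 1 and 2 by -0.31 log2 CPM, against 0.00 for all genes. The sterol enzymes were at 0.777 times and the fatty acid genes at 0.846 times that mean, by their medians. The median SD of the members across libraries was 0.187 log2 CPM, against 0.12 for all genes.

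The gap was widest for Fads2, with 4.83 CPM in replicate 3 and 9.58 and 8.60 CPM in replicates 1 and 2, a difference of -0.90 on the log2 scale. Mvd had 6.27 CPM in replicate 3, and 11.9 and 10.9 CPM in replicates 1 and 2 (-0.86). Scd1 had 7.29 CPM in replicate 3, and 13.2 and 12.0 CPM in replicates 1 and 2 (-0.79). For these 3 genes replicates 1 and 2 lay close together and replicate 3 well under both. Fdft1 (-0.74), Fdps (-0.69), Lss (-0.69) and Insig1 (-0.55) followed, Insig1 with 174 CPM in replicate 3, and 284 and 230 CPM in replicates 1 and 2. The unadjusted edgeR goodness-of-fit p was 0.0046 for Fdft1, 0.0141 for Lss and 0.00717 for Insig1, and none passed the adjustment.

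Other members had close values in all 3 libraries. Acly had 133 CPM in replicate 3, and 135 and 137 CPM in replicates 1 and 2. Acaca had 47.3 CPM in replicate 3, and 47.7 and 46.7 CPM in replicates 1 and 2. Ebp, the exception among the sterol enzymes, had 24.1 CPM in replicate 3, and 24.0 and 24.8 CPM in replicates 1 and 2. Scap (38.7 CPM in replicate 3, 38.1 and 40.5 CPM in replicates 1 and 2) and Insig2 (19.3 CPM in replicate 3, 18.5 and 18.0 CPM in replicates 1 and 2) were also close. Srebf1 was lowest in replicate 1, with 58.5 CPM in replicate 3 and 48.1 and 59.2 CPM in replicates 1 and 2. Depth, Malat1 and the summed neutrophil markers were all highest in replicate 3 (the values given above), and their part in the low member values there was not tested.

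**Figure D2:**
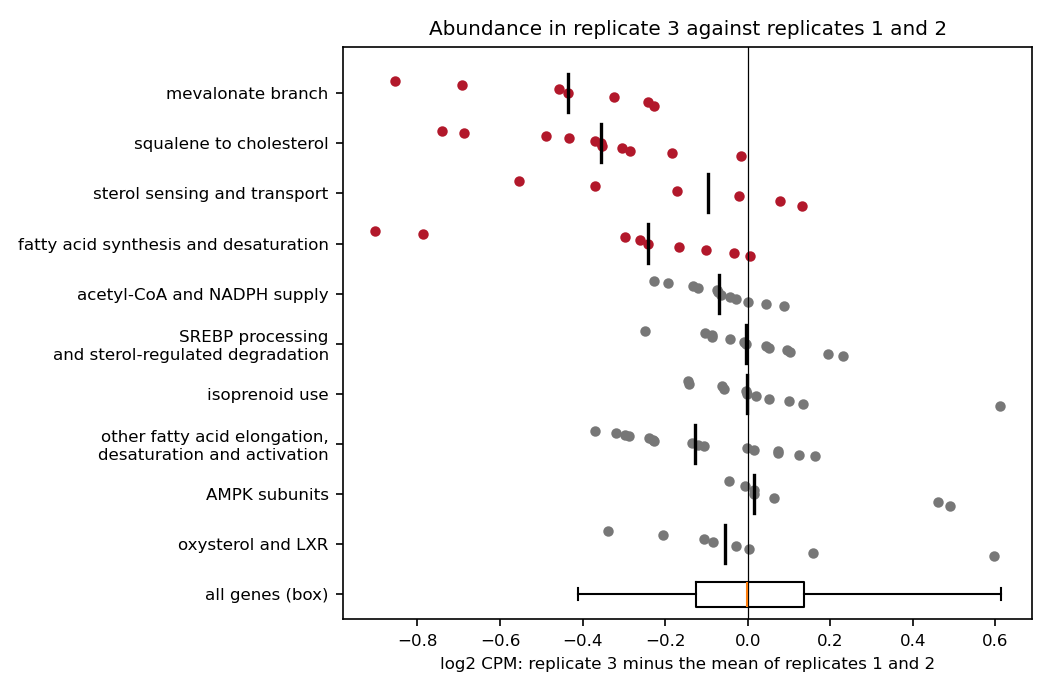
Difference in log2 CPM between replicate 3 and the mean of replicates 1 and 2, 1 point per gene, for the 4 groups of members (red) and 6 other lists of the pathway (grey), with a black bar at each median. The box gives the quartiles of all 12330 genes with whiskers at the 5th and 95th percentiles. The mevalonate and squalene groups lie left of 0 as a whole, with medians of -0.44 and -0.36, while the box is centred on 0.00.

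At the transcript level the leading transcript of all 33 genes was protein-coding and was the same in both quantifications. It held at least 50% of the gene's TPM in 32 genes and at least 90% in 15, with a median of 89.2% in the first quantification. Of the 2 Srebf1 starts compared here, the upstream one gives the SREBP-1a form and the downstream one the SREBP-1c form. A further transcript, the noncoding Srebf1-204, starts upstream of both. It averaged 0.477 TPM, above the 0.347 TPM of Srebf1-207, from the downstream start. Srebf1-201, from the upstream start, had 6.16, 6.42 and 6.61 TPM in replicates 1, 2 and 3. Srebf1-207, from the downstream start, had 0.49, 0.37 and 0.18 TPM. The upstream transcript was thus above the downstream one in every library, and this also held in the second quantification, with means of 2.34 and 0.378 TPM. Transcript values are estimates from reads that the forms mostly share. As annotated on the minus strand, Srebf1-207 stops at position 60200463, while Srebf1-201 runs on to 60199089. Reads from that last stretch cannot be credited to Srebf1-207, and the effect of this on its values was not tested.

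Srebf2-201, the coding form, had 23.4, 20.98 and 18.2 TPM, and the retained-intron transcript Srebf2-205 had 5.90, 4.72 and 4.14 TPM. Retained-intron transcripts made up 19.6% ± 0.7 of Srebf2 in the second quantification and 19.9% ± 0.5 in the first (SD, n = 3). This was the steadiest such share among the 4 genes at or above 10% in the first quantification. Insig2 had 15.0% ± 9.98 in the second and 14.6% ± 10.6 in the first, a share that came mostly from replicate 1, where Insig2-206 had 1.92 TPM, against 0.34 and 0.37 TPM in replicates 2 and 3. Lss had 11.3% ± 6.5 in the second and 10.9% ± 1.2 in the first. Fasn had 4.06% ± 5.7 in the second and 20.4% ± 12.4 in the first, so its share depended on the quantification.

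Several members were split between coding forms, given here per library in the first quantification. Acly-203 had 10.5, 8.64 and 8.09 TPM, and Acly-207, which starts downstream of it, had 8.0, 7.93 and 8.29 TPM. Hmgcs1-201 had 29.1, 21.6 and 20.2 TPM, and Hmgcs1-202 had 11.2, 11.1 and 8.46 TPM. In the second quantification Acly-203 averaged 3.60 TPM, against 1.65 TPM for Acly-207 and 1.27 TPM for Acly-201. Hmgcs1-201 averaged 11.9 TPM there and Hmgcs1-202 2.03 TPM. The near balance of the 2 Acly forms and the size of the Hmgcs1-202 part thus depended on the quantification. Of the high Msmo1 level a part was noncoding, since the processed transcript Msmo1-206 had 13.2, 10.8 and 10.3 TPM beside 21.8, 21.1 and 14.2 TPM of the coding Msmo1-201. Coding transcripts held 61.9% of the Msmo1 TPM in the first quantification and 78.3% in the second, so the noncoding part was smaller there. In the first, Msmo1-201 alone was above the reference median in all 3 libraries.

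**Figure D3:**
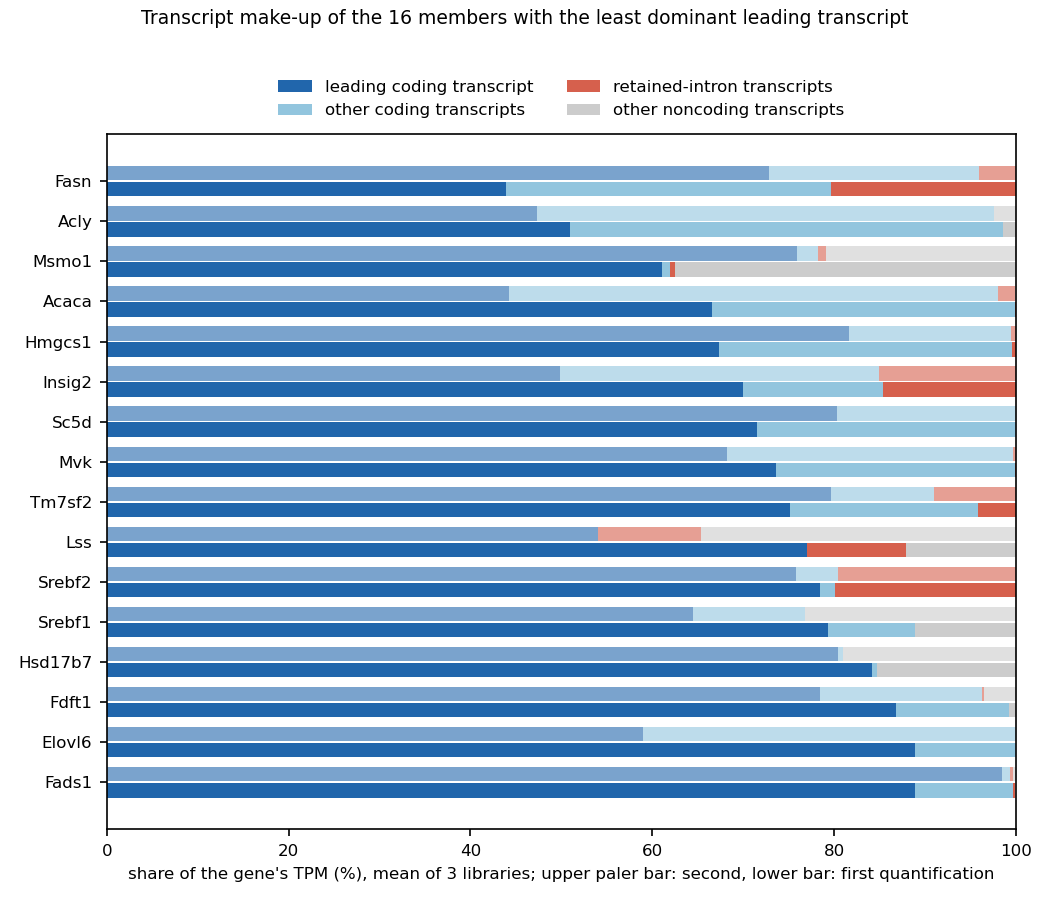
Share of each gene's TPM (%, mean of 3 libraries) held by its leading coding transcript, other coding transcripts, retained-intron transcripts and other noncoding transcripts, for the 16 genes with the lowest leading share in the first quantification. For each gene the upper paler bar is the second quantification and the lower bar the first. Srebf2 and Insig2 show like retained-intron shares in both, and Fasn 4.06% in the second and 20.4% in the first.

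The members were also compared across the 2 quantifications. After each library's median ratio was removed, 0 of the 32 members tested were called higher or lower in the second (limma, Benjamini-Hochberg over 9481 genes, a log2 ratio of at least 1), where 2.78% of all genes were higher and 1.89% lower. At any size of ratio, 15 of the 32 had an adjusted p under 0.05 (20 at an unadjusted p under 0.05), a share near that of all genes by the same rule (53.3%). The ratios of all 32 ran from -0.27 for Fasn to 0.47 for Lss, and Lss was not among the 15 (adjusted p = 0.0603). Acaca was 0.43 ± 0.03 log2 units higher in the second quantification (adjusted p = 0.00285) and shares 6118 bases at 99.2% identity with Gm5182, which averaged 0.0467 TPM. Msmo1 was lower in the second by -0.21 ± 0.02 (adjusted p = 0.00492). Elovl6, below 1 TPM in both, was not tested.

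The wider pathway was read from 6 lists of 74 genes, of which 65 reached a mean of 0.1 TPM, 22 were above the reference and 16 below. The supply of acetyl-CoA and NADPH had the highest median of the 6 lists, with 9 of 12 genes above and 2 below and a median level of 1.76 ± 0.03 log2 units (SD, n = 3), against -0.62 for all protein-coding genes. It ran from Taldo1, the transaldolase of the pentose phosphate pathway, with 61.6, 54.2 and 57.6 TPM, to Me1, malic enzyme, with 0.24, 0.19 and 0.18 TPM. The count of 9 above depends on the reference and was not repeated with the one of at least 5 TPM. Taldo1 was still called above with that reference (2.1). Slc25a1 (1.01), Mdh1 (1.66) and Cs (1.87), among the 9, lay lower than the member Scd2 (2.01). Scd2 lost its call with the higher reference (0.98). Of SREBP processing and sterol-regulated degradation 3 of 13 genes were above and 3 below, and the highest was Vcp, the ATPase that extracts ubiquitinated proteins from membranes (53.3, 45.5 and 52.5 TPM). Isoprenoid use had 1 of 11 above and 4 below, between Nus1, a subunit of the dolichol-making prenyltransferase (16.5, 16.2 and 16.7 TPM), and Fntb, the beta subunit of farnesyltransferase (0.90, 0.83 and 0.84 TPM).

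Other fatty acid elongation, desaturation and activation had 5 of 15 above and 5 below, between Tecr, the reductase of the very-long-chain elongation cycle (33.8, 28.1 and 23.4 TPM), and Elovl7, an elongase (0.13, 0.15 and 0.10 TPM). The AMPK list, whose kinase phosphorylates acetyl-CoA carboxylase, had 1 of 6 above and 1 below, between Stk11, which activates AMPK (17.9, 14.4 and 15.2 TPM), and Prkab2, a beta subunit (1.28, 1.31 and 1.69 TPM). The oxysterol and LXR list had 3 of 8 above and 1 below. Its highest gene was Soat1, which esterifies cholesterol, with 122.5, 132 and 141 TPM, a level of 4.31 ± 0.24 (adjusted p = 8.05e-06) that was above Insig1 in every library. The calls of Nus1 and Stk11 were lost in the second quantification (0.75 and 0.57) and with the reference of at least 5 TPM (0.29 and 0.23). The lowest tested gene of the oxysterol list was Ch25h, which makes 25-hydroxycholesterol, a signal that holds SREBP in the endoplasmic reticulum. Ch25h had 3.89, 2.13 and 2.09 TPM and lay at -1.30 ± 0.34 log2 units (adjusted p = 0.000627).

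**Figure D4:**
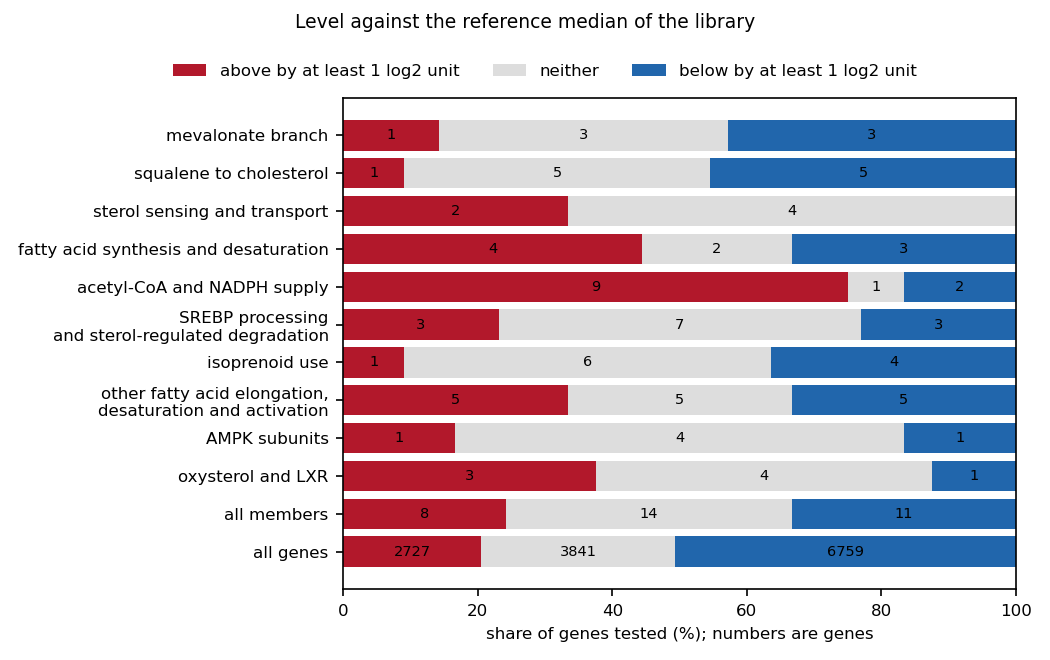
Share of the tested genes of each list that lay above the reference by at least 1 log2 unit (red), below it by at least as much (blue) or neither (grey), with the number of genes in each part. The supply of acetyl-CoA and NADPH has 9 of 12 genes in red and sterol sensing and transport none in blue (3 with a reference of at least 5 TPM), beside 8, 14 and 11 for all members and 2727, 3841 and 6759 for all genes. All bars use the reference of genes averaging 1 TPM or more, and a higher reference lowers every level. The supply list was not recounted with a reference of at least 5 TPM.

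The same comparison of replicate 3 was made for these lists. Of the 67 pathway genes that passed the minimum of 10 counts, 27 were lowest in replicate 3, with a median difference of -0.03 log2 CPM, against 28 of 33 members at -0.31. The difference between the lists was not tested. By list, the pathway genes lowest in replicate 3 were 6 of 12 for acetyl-CoA and NADPH supply, 4 of 13 for SREBP processing and 3 of 11 for isoprenoid use. They were 10 of 16 for other fatty acid genes, 0 of 7 for the AMPK list (subunits and Stk11) and 4 of 8 for oxysterol and LXR genes.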

How the data were processed

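The authors mapped reads to mm10 with GENCODE M21, per the text notes deposited with the tables, and that annotation gave the positions used here. For each library they deposited gene and transcript values (the first quantification: expected counts, TPM and FPKM, per the file headers) and transcript values made straight from reads (the second: estimated counts and TPM, per the file headers). Tool names, versions and use of strand: not given in the sources used here. TPM values add up over everything quantified, so they fall where abundant noncoding RNA rises.

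The 33 genes and the lists were chosen with earlier results of these data known; 55536 annotated genes gave 55418 symbols. All members are described. Each other list has its highest and lowest tested genes by mean TPM named, and Ch25h is always named; 1 gene so chosen is not reported here. Levels and quantifications were tested with limma 3.58.1, and variation on rounded expected counts with edgeR 4.0.16 (TMM, at least 10 counts in every library) in R 4.3.3. DESeq2 1.42.0 size factors, FPKM, other pseudocounts (0.01 and 1), filters, references, the second quantification and each library left out were alternatives. The smallest p of the exact sign-flip test with 3 libraries is 0.25. Every pair of libraries differed by more than counting error (chi-square per degree of freedom 102, 162 and 46.2), so none was a copy. Steps were tested on simulated data. Copies and overlaps were found with minimap2 2.31 and the annotation. A p measures only the spread between these libraries.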

Additional observations from a re-analysis of the deposited data

How the results depend on the processing

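No paired analysis was possible because the libraries form 1 group. With a reference of at least 5 TPM, 3 members lay above and 18 below, 1423 of all genes lay above, and the members' median was -1.18; Idi1 (-0.33), Fdps (-0.33), Sqle (-0.55), Cyp51 (-0.78), Ebp (-0.58), Sc5d (-0.50) and Srebf1 (-0.73) changed sign. That setting raises the reference itself. On FPKM the median was 0.06, Stard4 stood at 0.01 and the Elovl6 minus Elovl5 pair at -5.12. In the second quantification 5 members lay above, the median was -0.54, and Sqle (0.00), Cyp51 (-0.30), Ebp (-0.19) and Srebf1 (-0.04) lost their side of the reference. Pairs there were -1.48 (Srebf1 minus Srebf2), 2.76 (Insig1 minus Insig2), -3.82 (Scd1 minus Scd2), -4.30 (Elovl6 minus Elovl5) and 1.66 (Acly minus Acaca). With a pseudocount of 1 they were -3.54 (Scd), 2.76 (Fads), -3.51 (Elovl) and 1.89 (Acly minus Acaca), which shrinks low genes by construction. Without a filter on low values 14504 genes lay below. Between the quantifications, a pseudocount of 1 left 103 genes lower, a minimum of 0.1 TPM gave 1835 higher, and CPM in place of TPM gave 407 higher and 118 lower. For variation, the second quantification called 1 member. Leaving out 1 library called 0 to 2 members and 96 to 180 genes, with fewer samples in the fit. The number of members lowest in replicate 3 was 28 with DESeq2 size factors, 31 with no filter on low counts and 30 in the second quantification. Other causes were not tested.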
